A study of Mus musculus with 2 samples.

Results

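The endoplasmic reticulum (ER) folding machinery of *Tric-b*-knockout growth plates was examined as a set of 36 genes, namely the luminal chaperones, their co-chaperones, the disulfide isomerases and oxidases, the ER prolyl isomerases of the FKBP family and 3 genes of the stress sensing branches that induce them. The genes were chosen by name, and each was represented by the probe sets of a whole-genome mouse GeneChip that are annotated to that gene alone. All 36 were found among the 18193 genes named on the array, on 82 probe sets. The study asked how loss of TRIC-B, a cation channel of the ER and nuclear membranes, affects chondrocytes of the femoral growth plate. The data are 2 arrays, both hybridized with RNA from femoral cartilage of *Tric-b*-knockout (Tric-b-KO) embryos at E17.5, on a background the labels give as C57BL/6J and 129Sv. One array held RNA of the plate section enriched with round chondrocytes (Round), and the other RNA of the section with columnar and hypertrophic chondrocytes (Columnar.Hypertrophy). By the submitters' design text, each RNA was a mixture of 3 preparations, and each zone thus had 1 array. No difference below has a replicate check, a p-value or a standard error, and since both arrays are from knockout cartilage the values compare zones and not genotypes.

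As background, newly made secretory proteins enter the ER unfolded and are bound there by the HSP70 chaperone BiP, which cycles between ATP and ADP under the control of J-domain co-chaperones and nucleotide exchange factors. Glycoproteins are also held by the calcium-binding lectins calnexin and calreticulin, while disulfide bonds are set by the protein disulfide isomerases (PDIs), which the ERO1 oxidases recharge. When unfolded proteins accumulate, IRE1, ATF6 and PERK start the unfolded protein response (UPR), in which XBP1 and ATF6 raise the transcription of many of these genes. Chondrocytes secrete large amounts of collagen and proteoglycan and depend on this machinery, and several of its proteins need the calcium stored in the ER.

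Most markers of the zones followed the labels, but not all did. *Col10a1*, the type X collagen gene that marks hypertrophy, reached 25421 in the Columnar.Hypertrophy array and lay under the floor in the Round array, and *Prg4*, the lubricin gene of joint surfaces, went the other way, with 5260 in the Round and 94.1 in the Columnar.Hypertrophy array. Of 7 markers of round and joint cells, 4 passed 2-fold on the Round side, while *Epyc* (-0.15), *Matn1* (-0.01) and *Sfrp5* (0.08) were near level on the log2 scale. Of 4 hypertrophic markers compared, 3 passed 2-fold on the Columnar.Hypertrophy side, all from under the floor in the Round array. *Vegfa* (3095 and 1877) passed 1.5-fold on the Round side. *Mmp13* (13.3 and 63.4) lay under the floor in both arrays, and *Spp1* was not found on singly annotated probe sets. All 6 columnar and prehypertrophic markers were higher in the Columnar.Hypertrophy array, 5 of them past 2-fold. Signals at or under a floor of 65.9, the 40th percentile over both arrays, were not told apart. *Tmem38b*, which encodes TRIC-B, gave signals from 69.4 to 323 in the Round and from 43.1 to 304 in the Columnar.Hypertrophy array over its 4 probe sets, and as the position of these probes relative to the deleted part is not known here, they do not check the genotype. Genes of perichondrium, tendon and fibroblasts differed strongly between the specimens. Over the 12 genes of that marker list the summed signal was 126798 in the Round and 51087 in the Columnar.Hypertrophy array, and 9 of the 12 passed 2-fold on the Round side. *Col2a1*, encoding type II collagen, was near level at 49311 and 50518, and the 10 genes of a chondrocyte list had a median log2 difference of 0.02. Osteoblast and most skeletal muscle markers lay on the side of most folding genes, as did 3 of 4 myeloid and osteoclast markers compared. Of 5 endothelial markers compared, 4 lay on the Round side. The osteoblast genes *Ifitm5*, *Dmp1* and *Phex* summed to 123 and 526, and all 3 passed 1.5-fold. The 8 muscle genes summed to 372 and 1000, and 2 of the 5 compared passed 2-fold, *Acta1* (112 and 291) and *Tnnt3* (26.3, under the floor, and 409). In bulk specimens fewer cells of a type and less RNA per cell cannot be told apart, and the part of other cells in the differences below was not tested. Markers of plasma and B cells, which are also rich in ER chaperones, were low in both arrays, with 4 of 6 genes under the floor in both, and *Ighm* (366 and 292) and *Mzb1* (107 and 99.6) above it.

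Of the 36 genes of the folding machinery, 35 were above the floor in both arrays and *Creld1* in the Columnar.Hypertrophy array alone, and most had a somewhat higher signal in the Columnar.Hypertrophy array. In that array 30 of the 36 were higher, whereas 46.8% of the 12761 genes compared were. The median log2 difference, Columnar.Hypertrophy minus Round, was 0.25 over the 36 genes, a ratio of 1.19, beside a median of -0.04 over all genes compared. The quartiles were 0.03 and 0.49, and the extremes were -0.41 for *Hspa13* and 0.99 for *Creld1*. By a size rule of 1.5-fold, 7 genes were higher in the Columnar.Hypertrophy array, namely *Creld1*, *Fkbp11*, *Creld2*, *Sdf2l1*, *Pdia5*, *Hyou1* and *Manf*. That is 19.4% of the set, where 10.4% of all genes compared passed the same rule. With no floor the count was again 7, beside 17.6% of all genes. None of the 36 was 1.5-fold higher in the Round array, a side on which 15.3% of all genes compared passed. The split of all genes moved with the scaling, and the Columnar.Hypertrophy side held 40.5% of the 1.5-fold calls as deposited and 51.6% to 53.1% after median centring, quantile normalization or lowess centring. At 2-fold none passed in either direction, against 4.28% of all genes higher in the Columnar.Hypertrophy and 6.25% higher in the Round array. Error could be judged only from probe sets of the same gene, whose pooled SD in the log2 difference was 0.34 over 5446 genes. This SD says nothing of animals or RNA preparations. Of the 36 differences, 20 were smaller than this SD, 15 exceeded it toward the Columnar.Hypertrophy array and 1 toward the Round array. The share of all genes beyond this SD was not counted, so these counts have no background to be read against.

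**Figure D1:**
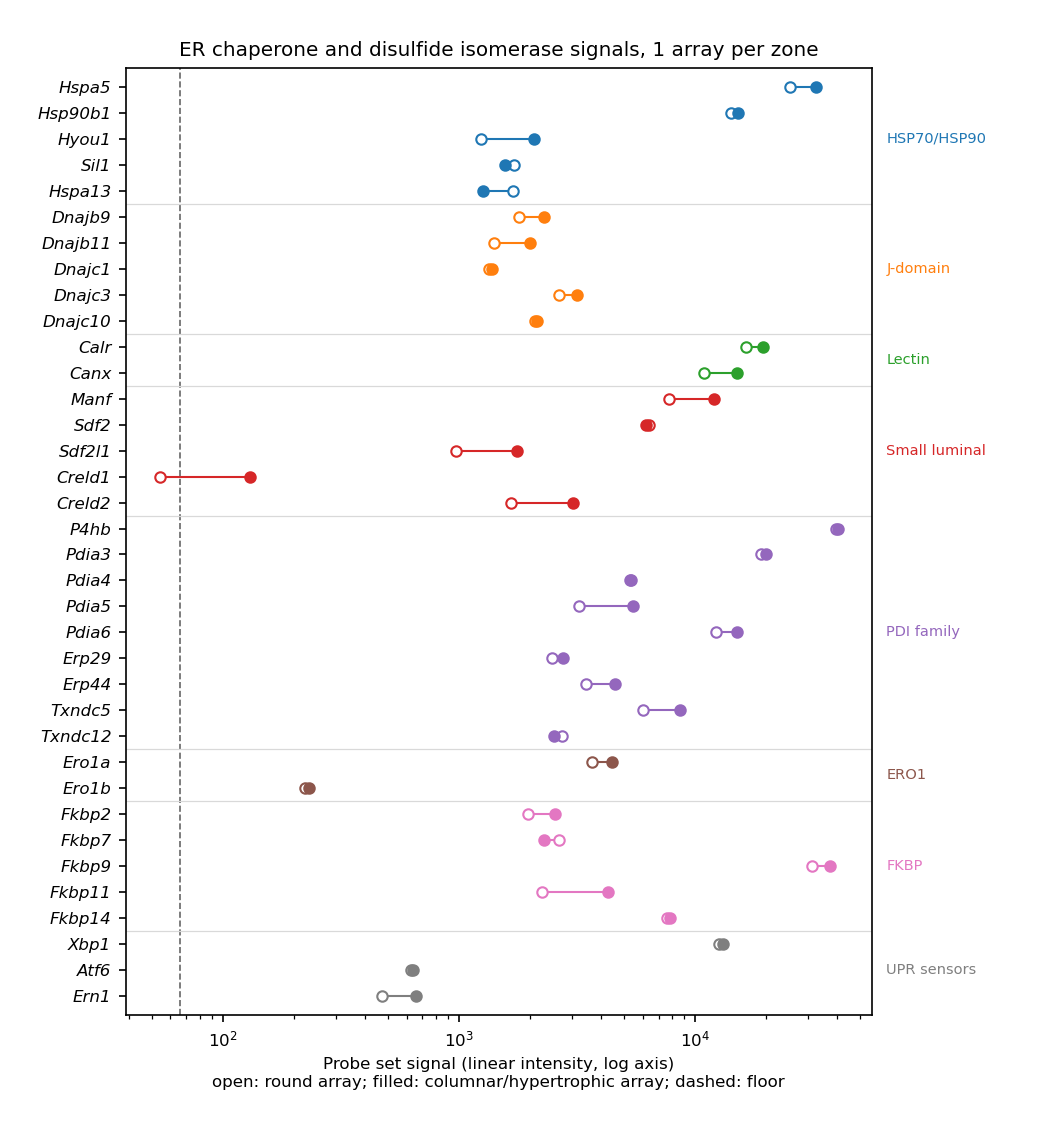
Signals of the 36 genes on a log axis, each from its brightest probe set (by mean log2 signal), with open circles for the Round array and filled circles for the Columnar.Hypertrophy array, 1 array per zone. Colours mark the role of each gene, and the dashed line is the floor of 65.9. For 30 of the 36 the filled circle lies to the right, and the lines are longest for *Creld1*, *Fkbp11*, *Creld2* and *Sdf2l1*.

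Probe sets differ in their response to RNA, and their signals were not used to rank the genes. Brightness was still of interest, since the zone difference of all genes moved with it. Among 308 genes with a mean signal over 10000, the median log2 difference was 0.14 and 75% were higher in the Columnar.Hypertrophy array. Among 3947 genes between 1000 and 10000 the median was 0.06 with 55.5% higher, and among 8506 dimmer genes it was -0.10 with 41.7% higher. In these 3 classes the folding genes had medians of 0.23 (9 genes), 0.28 (23 genes) and 0.26 (4 genes). Bright genes in general thus also lay toward the Columnar.Hypertrophy array. The 1.5-fold rule was passed by 0 of 9, 6 of 23 and 1 of 4 of the folding genes, beside 9.42%, 10.1% and 10.6% of all genes in the same classes. Scaling methods that follow brightness lowered the median of the 36, to 0.17 after quantile normalization and 0.14 after lowess centring, with 24 of 36 on the Columnar.Hypertrophy side in both and medians of all genes of 0.03 and 0.01.

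The promoters were read next, because UPR-induced chaperone genes are known for a shared element, the ER stress response element (ERSE), in which a CCAAT box bound by the factor NF-Y is followed, after a spacer, by a CCACG part bound by ATF6 or XBP1. Promoter sequences, taken from RefSeq (GRCm38.p6) as the 250 bases before and 50 bases after an annotated start, were found for 30 of the 36 genes, on 38 promoters. *Atf6*, *Erp29*, *Hspa13*, *Hyou1*, *Manf* and *Sil1* were not among them. The exact ERSE, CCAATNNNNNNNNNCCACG on either strand, was held by 8 of the 38 promoters (21.1%), where 39 of all 32851 promoters (0.119%) held it. These 8 belong to *Hspa5*, *Hsp90b1*, *Calr*, *Canx*, *Creld2*, *Dnajc3*, *Ero1b* and *Pdia6*. They are shown because this element is the one best known from chaperone promoters, and the other 22 genes with a promoter held no exact match. For the same reason, the higher share in this set than among all promoters is not an independent result. Each stretch is given 5′ to 3′ on the strand of the gene with the fixed letters of the element in capitals. An element on the opposite strand reads CGTGG before ATTGG.
Hspa5, chr2:34772000-34772068, plus strand: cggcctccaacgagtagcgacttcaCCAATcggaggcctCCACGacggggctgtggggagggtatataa
Hsp90b1, chr10:86705508-86705681, minus strand: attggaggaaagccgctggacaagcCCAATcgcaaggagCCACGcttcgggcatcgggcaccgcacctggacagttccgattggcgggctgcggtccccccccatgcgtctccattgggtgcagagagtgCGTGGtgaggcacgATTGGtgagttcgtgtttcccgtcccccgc
Calr, chr8:84847050-84847118, minus strand: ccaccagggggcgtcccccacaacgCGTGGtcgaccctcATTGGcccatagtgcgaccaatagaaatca
Canx, chr11:50325775-50325843, minus strand: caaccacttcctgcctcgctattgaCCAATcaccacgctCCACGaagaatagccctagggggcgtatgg
Creld2, chr15:88819495-88819563, plus strand: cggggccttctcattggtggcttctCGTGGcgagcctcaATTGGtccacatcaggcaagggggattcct
Dnajc3, chr14:118937802-118937870, plus strand: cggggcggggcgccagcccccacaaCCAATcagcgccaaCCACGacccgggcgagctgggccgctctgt
Ero1b, chr13:12565657-12565725, plus strand: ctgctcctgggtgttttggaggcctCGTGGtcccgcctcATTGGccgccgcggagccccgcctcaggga
Pdia6, chr12:17266466-17266534, plus strand: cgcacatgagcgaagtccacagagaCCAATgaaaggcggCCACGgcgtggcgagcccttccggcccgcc

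These promoters held 9 exact elements, 5 on the strand of the gene and 4 on the opposite strand. *Hsp90b1* held 2 of them, facing in opposite directions. All 9 lay before the annotated start, with first bases from 212 to 65 bases upstream. In *Hspa5* the element spanned positions 65 to 47 upstream. With at most 1 mismatch allowed in the 10 fixed letters, 14 of the 38 promoters held the element, on 13 genes, where 1.5% of all promoters did. The 5 genes so added were *Creld1*, *Erp44*, *Fkbp2*, *Pdia3* and *Pdia4*.

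Related UPR motifs were searched in the same windows. The ERSE-II, ATTGGNCCACG, was held by *Dnajb11* alone, 8 to 18 bases after its start, and by 0.0365% of all promoters. The UPR element TGACGTGG was held by *Txndc5* alone and by 0.676% of all promoters. Its core, ACGTGG, was held by 9 of the 38 promoters (23.7%) and 8.31% of all. In *Txndc5* the core lay inside the longer element and stood a second time 35 to 40 bases after the start, and in *Pdia6* and *Dnajc3* it stood apart from the ERSE. Of the genes past 1.5-fold, *Pdia5* and *Fkbp11* held the core without an exact ERSE, and their stretches are shown with those of *Dnajb11* and *Txndc5*, the motif in capitals.
Dnajb11, chr16:22857843-22857871, plus strand: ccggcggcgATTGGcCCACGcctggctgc
Txndc5, chr13:38528020-38528077, minus strand: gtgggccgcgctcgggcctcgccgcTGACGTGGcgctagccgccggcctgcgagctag
Pdia5, chr16:35490851-35490906, minus strand: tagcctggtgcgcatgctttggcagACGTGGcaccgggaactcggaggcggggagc
Fkbp11, chr15:98727592-98727615, minus strand: ggcttggacACGTGGcaagctatc

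Genes of the set with and without an ERSE had like zone differences. The 8 genes with an exact element had a median log2 difference of 0.26, from 0.05 for *Ero1b* to 0.87 for *Creld2*, and all 8 lay on the Columnar.Hypertrophy side. The 22 genes whose promoters lacked an exact match had a median of 0.27, with 18 on that side. The 9 genes with the ACGTGG core had a median of 0.28, and the 21 without it 0.23. A match is a description of letters in a window of 300 bases, and the lack of one says nothing about distal elements or the binding of a factor. Outside the set, 12 genes on the array held an exact ERSE, and 8 of them were compared, with a median of 0.50. Past 1.5-fold toward the Columnar.Hypertrophy array were 4 of these 8, *Derl3* (0.97), *Tdrd9* (0.92, under the floor in the Round array), *Spats2l* (0.86) and *Alg12* (0.69), where 10.4% of all genes compared passed. On the Round side were 3 of the 8, *Pan2* (-0.38), *Acacb* (-0.28) and *Adcy3* (-0.18). *Alg12* and *Creld2* face away from each other on chromosome 15, and the same ERSE, at chr15:88819520-88819538, stands in both promoters.

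**Figure D2:**
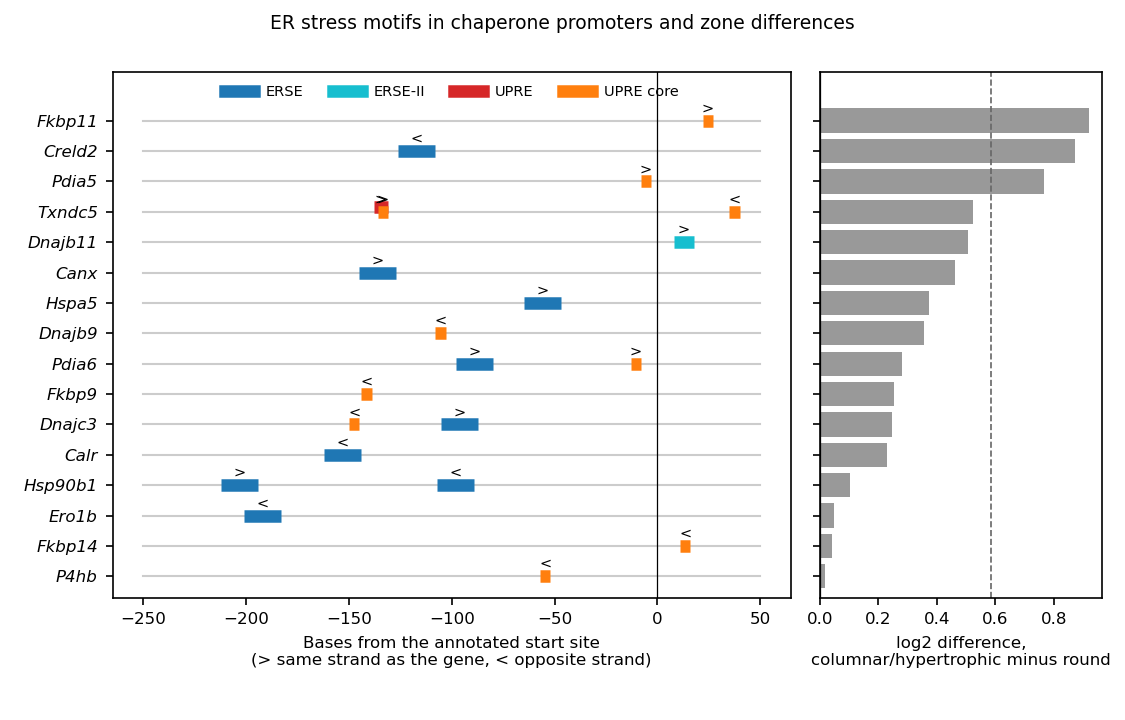
Left, positions of exact ERSE, ERSE-II, UPR element (UPRE) and UPRE core matches in the promoters of 16 genes of the set, in bases from the annotated start. Right, bars of the log2 difference, Columnar.Hypertrophy minus Round array, for the same genes in the same order, with 1.5-fold as a dashed line. All ERSE matches lie upstream of the start, and genes with an ERSE are spread from 0.05 (*Ero1b*) to 0.87 (*Creld2*).

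Among the 5 HSP70 and HSP90 genes, 3 lay on the Columnar.Hypertrophy side as deposited, and *Hyou1* alone passed 1.5-fold. After quantile normalization and after lowess centring 2 of the 5 lay on that side, with medians of -0.04 and -0.06. *Hspa5*, which encodes BiP (GRP78), gave 25210 in Round and 32635 in Columnar.Hypertrophy cartilage, a log2 difference of 0.37. Its second probe set gave 0.41 and the dimmest one -0.04. *Hsp90b1*, encoding GRP94, the ER member of the HSP90 family, gave 14174 and 15223, a log2 difference of 0.10, and its second probe set gave 0.15. The *Hsp90b1* signal was thus almost level between the zones. Its promoter window holds 2 exact ERSE matches, and their activity in either zone was not tested. *Hyou1*, encoding GRP170, a chaperone that also exchanges nucleotide on BiP, had signals of 1238 and 2078, a log2 difference of 0.75. Its other probe sets gave 0.35 and, at signals of 113 and 95, -0.26, so the size of its difference rests on 1 of 3 probe sets. With the mean over probe sets it was at 0.28 and *Hspa5* at 0.25. *Sil1*, the other nucleotide exchange factor of BiP, had signals of 1702 and 1568. *Hspa13*, encoding a small HSP70-like ATPase of microsomes, had the difference farthest toward the Round array, with signals of 1686 and 1265 and a log2 difference of -0.41. Of its 4 probe sets, 3 lay on the Round side and the dimmest at 0.12.

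The J-domain co-chaperones, which deliver clients to BiP and start its ATPase, were below 1.5-fold, with a median log2 difference of 0.25 over the 5 genes on their brightest probe sets. With the mean over probe sets the median was 0.04 and 3 of the 5 lay on the Columnar.Hypertrophy side. *Dnajb11* (ERdj3), which binds nascent chains, had signals of 1403 and 1995, a log2 difference of 0.51. *Dnajb9* (ERdj4), a classic target of XBP1, had signals of 1795 and 2299, a difference of 0.36. Both were measured by 1 probe set. *Dnajc3* (P58IPK) had signals of 2659 and 3152 on its brightest probe set, and its 5 probe sets ran from -0.27 to 0.25. *Dnajc10* (ERdj5), a reductase that helps to clear misfolded proteins, was level at 2102 and 2131. *Dnajc1* (ERdj1), a membrane J protein that contacts ribosomes, had signals of 1342 and 1376. Its 6 probe sets spread from -0.91 to 0.45, the widest spread in the set, and no side can be given for it.

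Both lectin chaperones were higher in the Columnar.Hypertrophy array on every probe set as deposited. After quantile normalization and lowess centring *Calr* was at 0.07 and 0.06, and *Canx* at 0.33 and 0.30. *Calr*, encoding the soluble calcium-binding calreticulin, gave 16486 and 19350, with log2 differences of 0.23 to 0.29 over its 3 probe sets. *Canx*, encoding the membrane-bound calnexin, gave 10894 and 15020, with 0.20 to 0.46 over its 3 probe sets. These probe sets differed less among themselves than the pooled SD of 0.34.

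The genes grouped here as small luminal proteins held the largest median log2 difference of any role, 0.86 over 5 genes, with 4 of the 5 past 1.5-fold. *Creld2*, a UPR-induced protein with disulfide isomerase activity, had signals of 1654 and 3029, a log2 difference of 0.87. *Sdf2l1*, a partner of ERdj3 and BiP, had signals of 971 and 1765, a difference of 0.86. *Manf*, a UPR-induced protein that binds BiP and can be secreted, had signals of 7728 and 12018, a difference of 0.64. In contrast to its paralog *Sdf2l1*, *Sdf2* was level, with signals of 6393 and 6206 and a difference of -0.04. *Creld1*, the paralog of *Creld2*, had signals of 54.1, which is under the floor, and 130. Its log2 difference of 0.99 is a bound set by the floor, and it was the dimmest gene of the set. Each of these 5 genes was measured by 1 probe set, so no second probe set checks them.

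Among the 9 PDI family genes, 7 lay on the Columnar.Hypertrophy side as deposited, and *Pdia5* alone passed 1.5-fold. After quantile normalization and after lowess centring 5 of the 9 lay on that side, with medians of 0.10 and 0.09. *P4hb*, encoding PDI, which is also a subunit of the collagen prolyl 4-hydroxylase, had signals of 39627 and 40122. The highest signal on either array was 68899. *Pdia3*, encoding ERp57, the isomerase that works with calnexin and calreticulin, had signals of 19100 and 19898. *Pdia4* (ERp72) had signals of 5353 and 5300. These 3 genes had log2 differences of 0.02, 0.06 and -0.01. *Pdia5* (PDIR) had signals of 3215 and 5469, a log2 difference of 0.77 on its single probe set. *Txndc5* (ERp46) followed at 6001 and 8625, with 0.52 and 0.47 on its 2 probe sets. *Erp44*, which returns ERO1 and other proteins from the early secretory pathway to the ER, had signals of 3452 and 4577, a difference of 0.41 that its second probe set, at 0.02, did not show. *Pdia6* (P5), at 12315 and 14978, had differences of 0.28 and 0.47 on its 2 probe sets. *Erp29*, a redox-inactive relative, had signals of 2465 and 2748, and *Txndc12* (ERp18) had 2738 and 2533, log2 differences of 0.16 and -0.11.

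For the 2 oxidases that hand disulfides to PDI, the value depended on the probe set read. *Ero1a* (listed as *Ero1l*), which is also induced by hypoxia, had signals of 3671 and 4461 on its brightest probe set. That probe set gave a log2 difference of 0.28, while the others gave 0.81 (2638 and 4618) and 0.59 (1939 and 2927), both past 1.5-fold. The choice of the brightest probe set thus kept *Ero1a* below the size rule, and the mean over its probe sets was 0.56. *Ero1b* (listed as *Ero1lb*), the form best known from pancreas, had signals of 223 and 231, a log2 difference of 0.05. Its second compared probe set (84.3 and 52.2, the latter under the floor) gave -0.36 as a bound.

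Of the 5 FKBP genes, which encode prolyl isomerases of the ER, *Fkbp11* alone passed 1.5-fold. *Fkbp11*, an XBP1 target of secretory cells, had signals of 2253 and 4267, a log2 difference of 0.92, the largest in the set above the floor in both arrays. Its other probe sets gave 0.21 (295 and 340) and 0.63 (89 and 138), all on the same side. *Fkbp2* had signals of 1964 and 2545, a difference of 0.37. *Fkbp9* gave 31207 and 37207, with 0.25 and 0.23 on its 2 probe sets. *Fkbp14*, whose product binds collagens, was level at 7615 and 7841. *Fkbp7*, whose product binds BiP, was slightly higher in the Round array, with signals of 2642 and 2286 and a difference of -0.21.

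The 3 genes of the sensing branches lay below 1.5-fold on their brightest probe sets, with a median log2 difference of 0.06 that became 0.47 with the mean over probe sets. *Xbp1*, the transcription factor gene activated through splicing by IRE1, had signals of 12605 and 13104, a log2 difference of 0.06. Its other probe sets gave 0.11, 0.15 and 0.48. The spliced and unspliced forms are not separated by these signals. *Atf6* had signals of 629 and 638 on its brightest probe set, a difference of 0.02, whereas its dimmer probe sets gave 0.47 (365 and 505) and 0.94 (142 and 272). *Ern1*, encoding IRE1α, had signals of 473 and 659, a difference of 0.48, and its 2 other compared probe sets gave 0.18 and, as a bound, 0.75. All 10 compared probe sets of these 3 genes lay on the Columnar.Hypertrophy side as deposited, and *Xbp1* turned to the Round side after quantile normalization (-0.09) and lowess centring (-0.10).

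**Figure D3:**
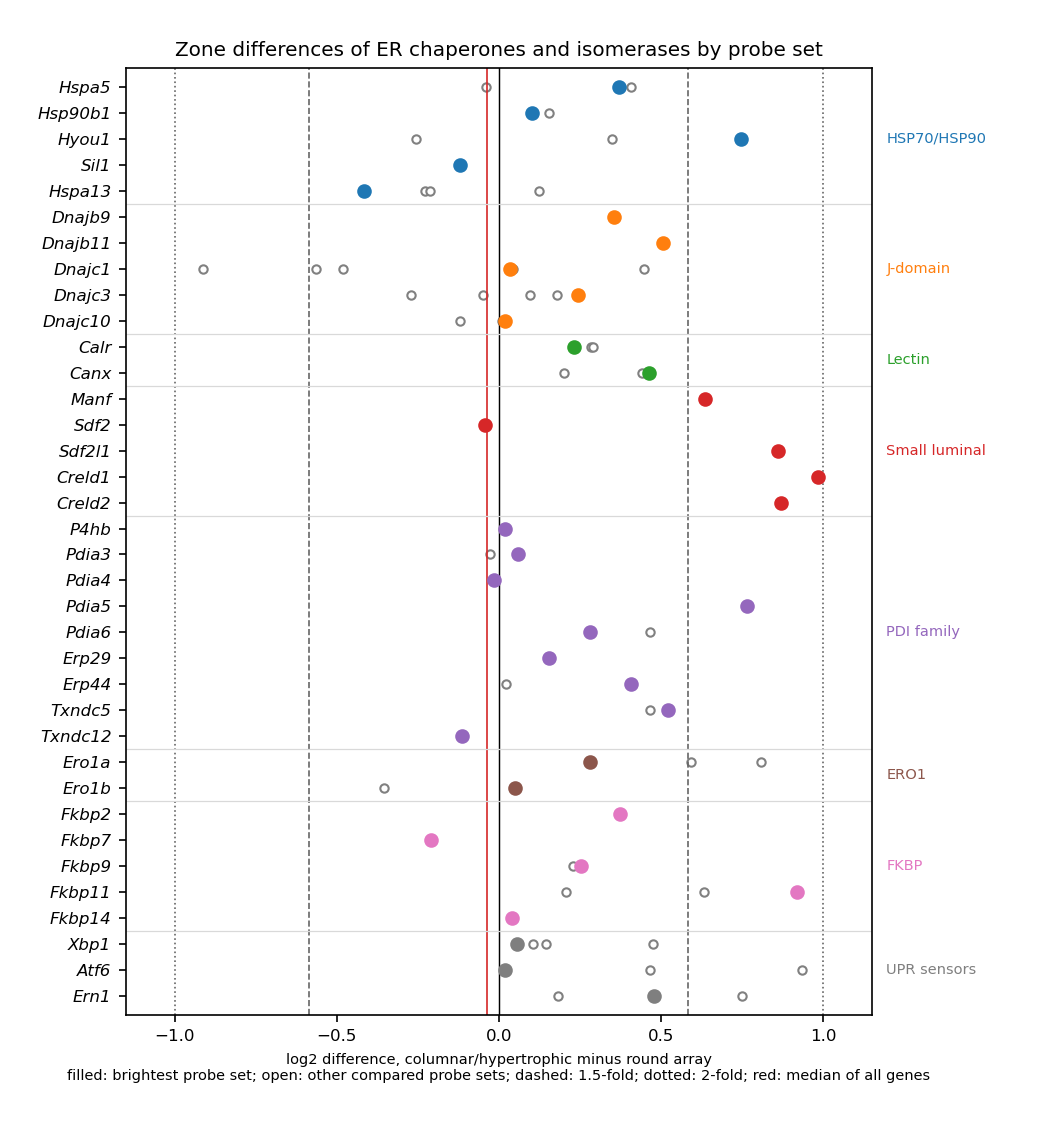
Log2 differences, Columnar.Hypertrophy minus Round array, of the 76 compared probe sets of the 36 genes. Filled circles are the brightest probe set of each gene and open circles the others, the dashed and dotted lines mark 1.5-fold and 2-fold, and the red line is the median of all genes, -0.04. The filled circles of 7 genes, *Creld1*, *Fkbp11*, *Creld2*, *Sdf2l1*, *Pdia5*, *Hyou1* and *Manf*, lie beyond the dashed line on the right, as do open circles of *Ero1a*, *Atf6*, *Ern1* and *Fkbp11*, and *Dnajc1* shows the widest spread between probe sets.

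Probe sets of one gene often disagreed at this size of difference. Of the 82 probe sets, 6 were under the floor in both arrays and were not compared. Of the 76 others, 58 were higher in the Columnar.Hypertrophy and 18 in the Round array, with a median of 0.19. In 20 genes several probe sets were compared, and in 12 of these all lay on 1 side. The other 8 were *Hspa5*, *Hyou1*, *Hspa13*, *Dnajc1*, *Dnajc3*, *Dnajc10*, *Pdia3* and *Ero1b*. Of the 7 genes past 1.5-fold, 5 rested on a single probe set, and *Fkbp11* and *Hyou1* had several.

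The calls were then followed through 9 other ways of processing the signals. In every setting that gave a value, 5 genes passed 1.5-fold on the Columnar.Hypertrophy side, *Creld1*, *Creld2*, *Fkbp11*, *Pdia5* and *Sdf2l1*, with *Creld1* under the floor in both arrays at the 60th percentile floor. *Manf* did not reach 1.5-fold after quantile normalization and lowess centring, where its lowest log2 difference was 0.48. *Hyou1* did not reach it with the mean over probe sets (0.28) and with specific probe sets only (0.35). Past 1.5-fold in 1 other setting each were *Dnajb11*, *Txndc5* and *Ern1*. No gene was 1.5-fold higher in the Round array in any setting. On the Columnar.Hypertrophy side throughout were 22 genes, on the Round side throughout 4 (*Sil1*, *Hspa13*, *Txndc12* and *Fkbp7*), and the side of the other 10 depended on the setting. In single settings, 8.92% to 17.6% of all genes passed 1.5-fold on the Columnar.Hypertrophy side. The share of all genes that passed, or kept a side, in every setting was not counted, so the counts over all settings have no background.

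**Figure D4:**
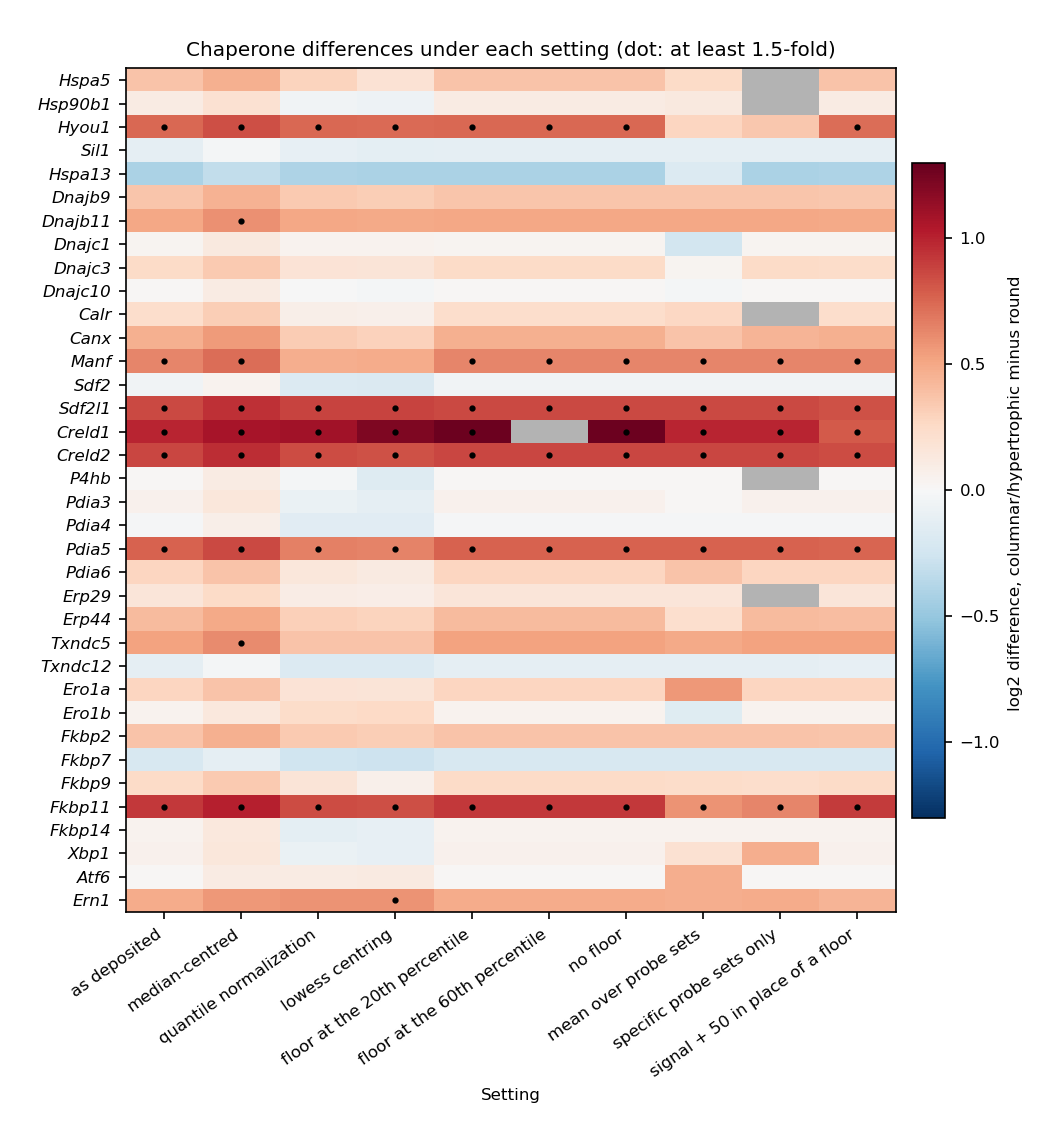
Log2 differences, Columnar.Hypertrophy minus Round array, of the 36 genes (rows) as deposited and under 9 other settings (columns), red for higher in the Columnar.Hypertrophy and blue for higher in the Round array. Dots mark differences of at least 1.5-fold and grey cells have no value. *Creld2*, *Fkbp11*, *Pdia5* and *Sdf2l1* carry a dot in all 10 columns.

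Other folding genes were compared by lists chosen for their role. The glycoprotein folding and quality control list had a median log2 difference of 0.33, with 12 of 14 compared genes on the Columnar.Hypertrophy side and 1 past 1.5-fold, *Mogs*, the glucosidase gene that makes the first cut on the glycan (2782 and 4694, 0.75). *Mlec*, encoding the glycan-binding malectin, followed at 0.57. *Os9* and *Man1b1* lay on the Round side at -0.23 and -0.21. For collagen folding genes the median was 0.14, and 12 of 15 lay on the Columnar.Hypertrophy side. That side was lost after quantile normalization (0.01, 8 of 15) and lowess centring (-0.02, 6 of 15). Only *P3h2*, a collagen prolyl 3-hydroxylase gene, passed 2-fold, with signals of 750 and 4890, and *Colgalt1*, a collagen galactosyltransferase gene, followed at 0.57, whereas *P3h3* lay farthest toward the Round array at -0.47. The other oxidoreductases had a median of -0.03, with 7 of 16 on the Columnar.Hypertrophy side. Past 1.5-fold there were *Tmx2* (0.65) and *Qsox2* (0.61), while *Qsox1* (-0.51) and *Txndc16* (-0.46) were the farthest toward the Round array.

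Regulators of the UPR had a median log2 difference of 0.11, with 10 of 15 compared genes on the Columnar.Hypertrophy side and none past 1.5-fold there. *Atf4*, encoding the factor downstream of PERK, was at 0.41 and *Ppp1r15a*, encoding the eIF2α phosphatase subunit GADD34, at 0.37. *Creb3l1*, encoding a membrane-bound factor of collagen-secreting cells, passed 2-fold toward the Round array, with signals of 274 and 114. Its relative *Creb3l2* (BBF2H7), the factor of chondrocytes, had signals of 7907 and 6177, a difference of -0.36. Chaperones outside the ER gave values much like those of the ER set. Of 29 cytosolic and mitochondrial chaperone genes, 25 were higher in the Columnar.Hypertrophy array, with a median of 0.33. There 5 passed 1.5-fold, *Hspb1* (1.06), *Hspa4* (0.84), *Hspa4l* (0.64), *Hspd1* (0.63) and *Cct3* (0.61). *Hspa1a* (136 and 83.9) was 1.5-fold higher in the Round array, and *Dnajb6* followed at -0.28. After lowess centring the medians were 0.25 for these chaperones and 0.14 for the ER set. A higher signal in the Columnar.Hypertrophy array was thus not particular to the chaperones of the ER.

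**Figure D5:**
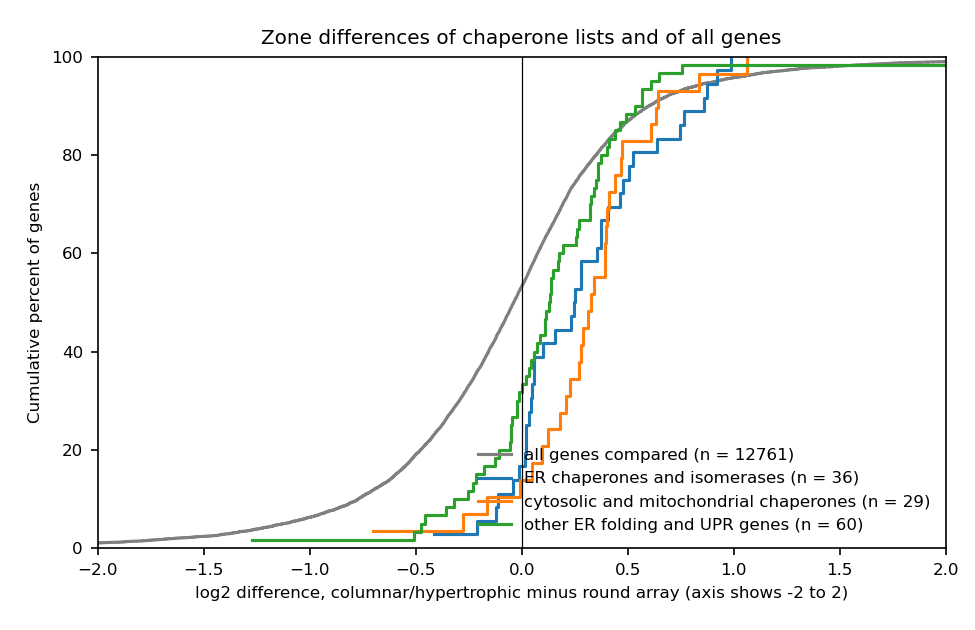
Cumulative percent of genes by log2 difference, Columnar.Hypertrophy minus Round array, for all 12761 genes compared, the 36 ER chaperones and isomerases, 29 cytosolic and mitochondrial chaperones and 60 other ER folding and UPR genes. The curves of both chaperone sets lie to the right of that of all genes, with medians of 0.25 and 0.33 against -0.04.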

How the data were processed

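The authors deposited 1 linear intensity per probe set for each of the 2 arrays. MAS5 is named, without a version, in the submitters' processing notes, while the methods name robust multiarray analysis for heatmaps, which gives log values not used here. Means trimmed by 2% at each end were 497 and 496, so the intensities were used without rescaling.

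Of 45037 probe sets, 34945 were annotated to 1 gene, 932 to several and 9160 were unnamed here. Symbols were checked by Entrez identifier against a reference table, which held 34741 and changed 0. Signals at or under the 40th percentile (65.9) were set to this floor, and genes whose signals both lay there were left out of the comparison. Each gene was read from the brightest of its probe sets, by mean log2 signal. No test was run on 1 array per zone, and genes were counted by rules of 1.5-fold and 2-fold. The number of arrays limits the precision. Classes of brightness were set after the data were seen. The 36 genes, the other lists and the naming rule were chosen with earlier results of these data known. The naming rule took all 36 genes. Of each other pathway list it took the 2 largest differences in each direction among genes above the floor in both arrays. It also took any gene past 2-fold and the brightest markers of each marker list. The rule was not followed in full. *P4ha3* (-0.05) of the collagen folding list and bright markers of several lists, such as *Col1a2* and *Lum*, were left out. *Prg4*, *Vegfa* and other markers, the genes outside the set with an ERSE and further genes past 1.5-fold were named after their values were seen. Not found on singly annotated probe sets were *Fkbp10*, *Hsp90ab1*, *Ppia* and *Ppid* of the pathway lists. Promoter motifs were searched on both strands. Alternatives were 3 scalings, the 20th or the 60th percentile as floor, no floor at all, averaging all probe sets of a gene, keeping specific probe sets (without _a, _s or _x in the name), and 50 added to the signal in place of a floor. The steps were tested on simulated data. The tools were matplotlib 3.10.9, statsmodels 0.14.6, pandas 2.3.3 and numpy 2.4.6 under Python 3.11.15.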

Additional observations from a re-analysis of the deposited data

How the results depend on the processing

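No paired analysis was possible because there was only 1 array for each zone, and nothing was tested. The median log2 difference of the 36 genes, 0.25 as deposited, was 0.34 when median-centred, 0.17 after quantile normalization and 0.14 after lowess centring, beside medians of all genes of 0.05, 0.03 and 0.01. In the other 6 settings it moved by less than 0.057, a tolerance chosen for this comparison. This tolerance is the pooled probe set SD divided by the root of the number of genes, and it is not a standard error. With specific probe sets only the median was over 31 genes, and with the 60th percentile floor over 35. Genes of the set past 2-fold on the Columnar.Hypertrophy side numbered 0 as deposited, 2 when median-centred, 1 after quantile normalization, 1 after lowess centring, 1 without a floor and 1 with a 20th percentile floor. The count at 1.5-fold stayed between 6 and 9, beside 8.92% to 17.6% of all genes on that side, and 0 were higher in the Round array under every setting.

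Under the alternatives, 314 values of single genes stayed within 0.34 of the value as deposited. The 4 others were *Hyou1* (0.28 and 0.35) and *Atf6* (0.47) and *Xbp1* (0.48) on other choices of probe sets. Over all genes, 1331 were 1.5-fold higher in the Columnar.Hypertrophy and 1953 in the Round array. These counts were 2279 and 3221 with the 20th percentile floor, and 3193 and 4191 with no floor, and the Round count was 1154 with the 60th percentile floor. At 2-fold the counts of 546 and 798 became 1053 and 1519, 347 and 407, and 1940 and 2524 with the 20th percentile floor, the 60th percentile floor and no floor, in that order. The share of 1.5-fold calls on the Columnar.Hypertrophy side was 40.5% as deposited, 51.6% when median-centred, 51.8% after quantile normalization and 53.1% after lowess centring. The cause of these shifts was not tested, beyond the number of genes that each floor admits.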
